A study of Mus musculus with 10 samples.

Results

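The genes described here are the 31 constitutive subunits of the proteasome, measured on 10 expression arrays of fibroblasts cultured from mouse embryos. They were chosen by name: 7 subunits of the alpha ring, 7 of the beta ring, 6 of the ATPase ring, 3 other subunits of the base and 8 of the lid. The inducible subunits that replace catalytic ones in immune cells are not among the 31. Of the 67 probe sets for the 31 genes, the one of highest mean over the 10 arrays stands for its gene. All 31 had such a probe set and passed the filter on low values, which asked for a mean of at least 4 on the log2 scale in at least 1 group. In the whole series 18193 genes had a probe set with a single symbol, and 10623 of them passed that filter.

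The 5 groups had 2 arrays each. CDKO cells, which carry a conditional knockout of Dicer, the enzyme that cuts microRNA precursors, formed 3 groups: no treatment, and 4 days of 4-hydroxytamoxifen at 1 µM or at 5 µM. Wild-type (WT) cells formed the other 2 groups, 5 µM for the same time and no treatment. The source names call the drug tamoxifen. All cells were grown in DMEM with 10% serum. The labels name neither the recombinase that the drug would act on nor its promoter. Line was taken from the sample titles, since the description field gives a conditional Dicer allele for all 10 samples, the 4 with WT in their title included. Nothing in the labels says that the paired arrays of a group were grown separately, so the spread behind each p-value may be technical.

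The proteasome is the protease complex that degrades proteins tagged with ubiquitin. Its barrel-shaped core is built of stacked rings: the outer alpha rings gate entry, and the inner beta rings hold the protein-cutting sites. A regulatory particle sits on the ends of the core, with a base whose ATPases unfold the substrate and a lid that removes the ubiquitin chain. In many cell types the subunit genes are transcribed together, and the transcription factor NRF1 (Nfe2l1) raises them when the proteasome is inhibited.

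Dicer1 had 2 probe sets, and whether either lies in the deleted part is not given by the labels, so they do not check the deletion. The brighter read 7.09 and 5.99 in untreated CDKO cells, 5.40 and 8.30 at 1 µM, 5.83 and 5.78 at 5 µM, and 7.64 and 7.19 in WT cells at 5 µM against 8.97 and 9.10 in untreated WT cells. The arrays also differed in quality measures. The added spike-in controls were high on 1 of 2 arrays of untreated CDKO cells (replicate 1), on 1 of 2 arrays of CDKO cells at 5 µM (replicate 1) and on all 4 WT arrays, and low on the other 4 arrays. The probe sets for 18S ribosomal RNA read 11.6 and 11.2 in untreated WT cells and 10.2 in replicate 2 of CDKO cells at 1 µM, and 5.21 to 8.44 on the other 7 arrays. On the same 3 arrays the 3′ probe set of Gapdh exceeded its 5′ probe set by 0.67 to 1.58, against -0.31 to 0.07 on the other 7. Both Dicer1 probe sets were higher on these 3 arrays than on any of the other 7, as 13.7% of all tested genes were. The second Dicer1 probe set read 7.31 and 7.16 in untreated WT cells and 6.55 in replicate 2 of CDKO cells at 1 µM, and 5.49 to 6.33 elsewhere. Fibroblast markers were at or above 4 on every array for 9 of 10 genes, and all 5 endothelial markers were under 4 on every array. Of 13 macrophage and leukocyte markers, 11 were at or above 4 on every array. The log2 of their summed level was 12.58 and 11.54 in untreated CDKO cells, 11.41 and 10.85 at 1 µM, 13.34 and 11.68 at 5 µM, and 13.96 and 13.94 in WT cells at 5 µM against 13.38 and 13.40 in untreated WT cells. Other marker lists were high in untreated WT cells. The median of 6 skeletal muscle markers was 6.02 and 6.23 there and 2.80 to 3.01 on the other 8 arrays, though Myod1 and Myog were under 4 on every array, and that of 5 epithelial markers was 7.20 and 7.07 there and 3.42 to 4.03 elsewhere. Mitosis genes lay a median of 1.60 and 1.66 above their own means in untreated WT cells and -0.96 to 0.78 on the other arrays. The part of these in the comparisons that use untreated WT cells was not tested.

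The 31 subunit genes were all strongly expressed and varied little between the groups. Their mean log2 level over the 10 arrays lay between 10.9 for Psmd3, a lid subunit, and 13.9 for Psmc2, an ATPase, on a scale where the values of all probe sets ran from 1.09 to 16.04. These levels rank probe sets and not transcript amounts, since probe sets differ in brightness. The range of the 5 group means had a median of 0.46 over the 31 genes, against 0.84 over all 10623 tested genes and 0.60 over the 1721 tested genes with a mean no lower than that of Psmd3. It was under 1, a 2-fold difference, for 29 of the 31 genes (93.5%), against 81.0% of those 1721 genes and 61.0% of all tested genes.

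**Figure D1:**
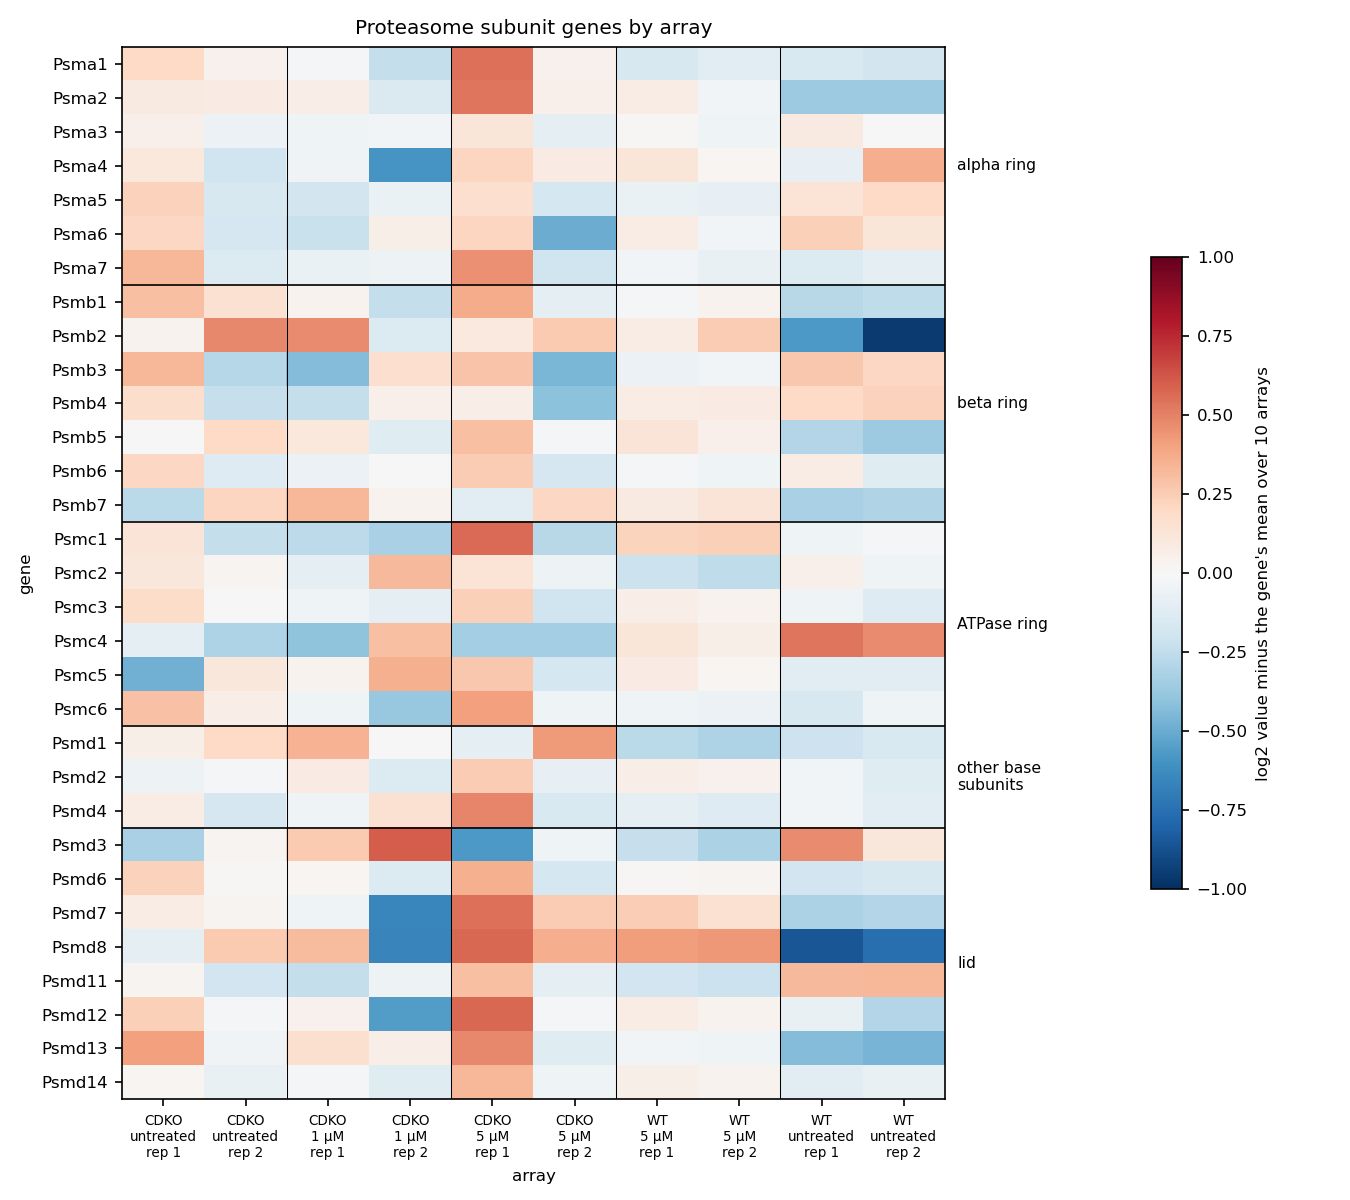
Log2 value of each of the 31 proteasome subunit genes (rows, grouped by subcomplex) on each of the 10 arrays (columns), as the difference from the gene's own mean over the 10 arrays. Most cells lie within 0.5 of 0, the first array of CDKO cells at 5 µM is the highest array for 18 of the 31 genes, and Psmb2 and Psmd8 are lowest in untreated WT cells.

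In each of the 8 comparisons made, 0 of the 31 genes passed the test (limma, Benjamini-Hochberg adjusted p under 0.05 over all tested probe sets). In a comparison of 2 groups the 95% interval reached a median of 0.56 on the log2 scale to either side of the difference.

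The steadiest genes were Psmb6 and Psma3, picked out after their values were seen. Psmb6 encodes the caspase-like catalytic subunit. It read 13.01 and 12.67 in untreated CDKO cells, 12.75 and 12.80 at 1 µM, 13.06 and 12.63 at 5 µM, and 12.79 and 12.76 in WT cells at 5 µM against 12.88 and 12.69 in untreated WT cells. Its 5 group means spanned 0.07, less than the gap between the 2 arrays of untreated CDKO cells. Psma3, an alpha ring subunit, had group means that spanned 0.08. Its second probe set, much dimmer at a mean of 4.95, differed by -1.44 ± 0.30 between 5 µM and untreated WT cells (limma adjusted p = 0.0322).

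The other catalytic subunits moved a little more. Psmb5, the chymotrypsin-like subunit, read 12.70 and 12.90 in untreated CDKO cells, 12.81 and 12.58 at 1 µM, 13.00 and 12.68 at 5 µM, and 12.83 and 12.75 in WT cells at 5 µM against 12.41 and 12.34 in untreated WT cells. Psmb7, the trypsin-like subunit, read 12.80 and 13.29 in untreated CDKO cells, 13.40 and 13.11 at 1 µM, 12.95 and 13.28 at 5 µM, and 13.16 and 13.20 in WT cells at 5 µM against 12.74 and 12.77 in untreated WT cells. For both genes the 2 arrays of untreated WT cells were the lowest of the 10, and the CDKO groups overlapped.

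The design text sets treated CDKO cells, at either dose, against the other 3 groups. In the fit 20 of the 31 genes were higher and 11 lower in treated CDKO cells, with a median difference of 0.05 and a span of -0.33 to 0.29. The median of all tested genes was 0.02. None of the 31 genes passed, and 0 had an unadjusted p under 0.05, where 2.43% of all tested genes passed and 15.6% had an unadjusted p under 0.05. For all 31 genes the 95% interval of the difference lay within 1 on either side of 0.

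The smallest p in that comparison belonged to Psmc4, an ATPase. It read 12.46 and 13.16 in CDKO cells at 1 µM and 12.51 and 12.51 at 5 µM, against 12.77 and 12.55 in untreated CDKO cells, 12.98 and 12.91 in WT cells at 5 µM and 13.40 and 13.33 in untreated WT cells. The difference was -0.33 ± 0.17 (SE, limma adjusted p = 0.339). It was 0.20 on the second probe set of the gene (adjusted p = 0.486) and -0.15 without replicate 1 at 1 µM. Psmd1, which encodes a scaffold subunit of the base, differed by 0.28 ± 0.15 (adjusted p = 0.377), and Psmb2, a beta ring subunit without a cutting site, by 0.29 ± 0.18 (adjusted p = 0.452). The treated and control arrays of these 3 genes overlapped. For 0 of the 31 genes did the 4 treated CDKO arrays all lie above or all below the 6 others, as they did for 0.546% and 0.358% of all tested genes.

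Within CDKO cells, 5 µM was compared with no treatment. A total of 19 of the 31 genes were higher and 12 lower at 5 µM, with a median difference of 0.04 and a span of -0.16 to 0.38. The count of genes with an unadjusted p under 0.05 was 0 of 31, against 7.40% of all tested genes, and 0.141% of all tested genes passed after adjustment. The lid genes had a median of 0.17 and the beta ring genes of -0.08. For 30 of the 31 genes the 95% interval lay within 1 on either side of 0, Psmd8 being the exception.

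The lid genes Psmd7 and Psmd8 came first by size. Psmd7 encodes the partner of the deubiquitinase Psmd14. It read 11.98 and 11.67 in CDKO cells at 5 µM against 11.50 and 11.45 in untreated CDKO cells, a difference of 0.35 ± 0.25 (adjusted p = 0.813). Psmd8 read 13.86 and 13.64 against 13.19 and 13.54 in the same groups, a difference of 0.38 ± 0.32 (adjusted p = 0.871). These were the 2 genes of 31 with both treated arrays above both untreated arrays, an arrangement that 14.4% of all tested genes showed. Psmc4 alone had both treated arrays below, as 13.2% of all tested genes had. Psma2, of the alpha ring, read 13.66 and 13.17 against 13.21 and 13.20, and its groups overlapped (0.21 ± 0.22, adjusted p = 0.916). Without replicate 1 at 5 µM the difference in Psma2 was -0.034.

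The comparison depended on which array of CDKO cells at 5 µM was read. Replicate 1 was higher than replicate 2 for 26 of the 31 genes, by a median of 0.43, while over all tested genes 51.3% were higher in replicate 1 and the median difference was 0.01. Replicate 1 was the highest of the 10 arrays for 18 of the 31 genes, which held for 16.8% of all tested genes. Each spike-in class held 1 array of each of these 2 groups. Between arrays of the same spike-in class the median of the 31 genes was 0.12 for the high class (25 genes higher at 5 µM) and -0.04 for the low class (8 genes higher). Without replicate 1 of CDKO cells at 5 µM the median was -0.12, and without replicate 2 it was 0.23. The macrophage and leukocyte markers were also higher on replicate 1, with a median of 0.67 above each gene's own mean against -1.37 on replicate 2. The fibroblast markers were lower there, with a median of -1.08 against 0.19 on replicate 2 and the lowest summed level of the 10 arrays. The part of these markers and of the spike-in class in the result was not tested.

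CDKO cells at 1 µM were compared with untreated CDKO cells in the same way. At 1 µM 8 of the 31 genes were higher and 23 lower, with a median difference of -0.10 against 0.00 over all tested genes. None of the 31 passed, 0 had an unadjusted p under 0.05 (against 2.30% of all tested genes), and 0% of all tested genes passed. Psmd3 read 11.12 and 11.47 at 1 µM against 10.54 and 10.89 in untreated cells (0.58 ± 0.27, adjusted p = 0.887). Psmc6, an ATPase, read 12.42 and 12.08 against 12.75 and 12.52 (-0.39 ± 0.23, adjusted p = 0.887), and Psmd7 read 11.38 and 10.77 against 11.50 and 11.45 (-0.39 ± 0.25, adjusted p = 0.887). The arrays did not overlap for these 3 genes. In all, 7 of the 31 genes lay below and 1 above untreated cells on both arrays, which 11.2% and 11.1% of all tested genes did. With both groups read on the low spike-in class, 2 arrays at 1 µM and 1 untreated, the median was -0.01, with 15 genes higher. That is the same comparison as with replicate 1 of untreated CDKO cells left out.

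Set directly against 1 µM, CDKO cells at 5 µM had 23 of the 31 genes higher and 8 lower, with a median of 0.11. Of the 31 genes 2 had an unadjusted p under 0.05, as 10.7% of all tested genes had, and 0 passed, as 0.16% of all tested genes did. Psmd7 differed by 0.75 ± 0.25 (95% interval 0.17 to 1.32, unadjusted p = 0.0179, adjusted p = 0.300) and Psmd3 by -0.74 ± 0.27 (unadjusted p = 0.0277, adjusted p = 0.332). Psmd8, which read 13.59 and 12.62 at 1 µM, differed by 0.64 ± 0.32 (adjusted p = 0.430). The 2 arrays at 1 µM disagreed on Psmd8 by 0.97, and replicate 2, the one with raised 18S, was the lower. The arrays did not overlap for 4 genes higher at 5 µM (Psma1, Psma4, Psmd7 and Psmd8) and 1 lower (Psmd3), as for 17.1% and 15.8% of all tested genes. With replicate 1 at 1 µM left out, so that replicate 2 stood alone for that dose, Psmd7 and Psmd8 passed, with differences of 1.05 and 1.13, and 6.14% of all tested genes passed. Between the low-class arrays, 1 at 5 µM and 2 at 1 µM, the median of the 31 genes was -0.05, with 13 genes higher. That is the same comparison as with replicate 1 at 5 µM left out.

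**Figure D2:**
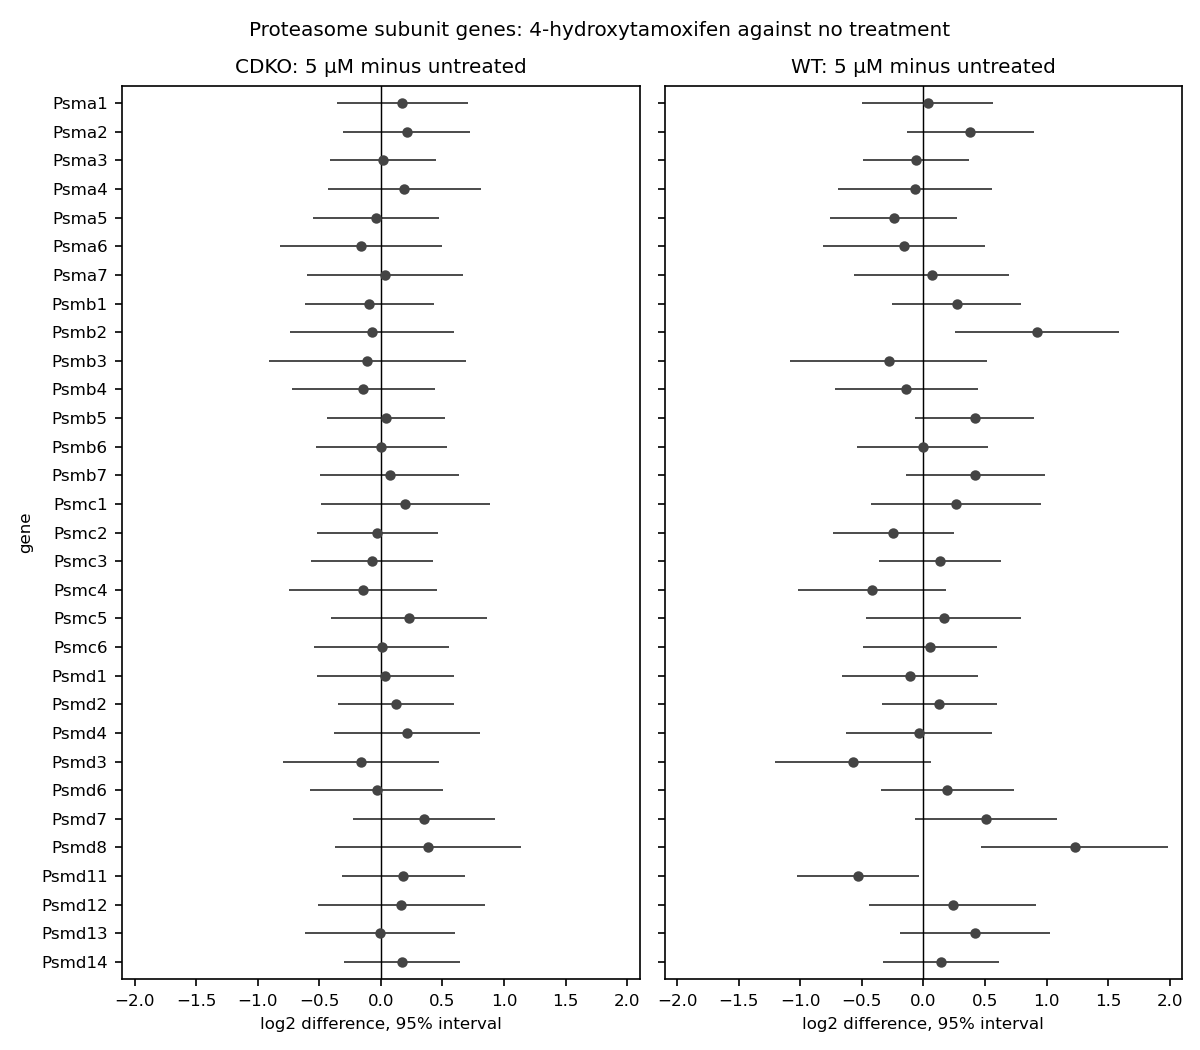
Log2 difference of each of the 31 proteasome subunit genes between 5 µM and untreated cells, in CDKO cells (left) and in WT cells (right). Points are the fitted differences and bars their 95% intervals (2 arrays per group); in WT cells Psmd8, Psmb2 and Psmd11 have intervals that leave out 0, and in CDKO cells every interval includes 0.

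In the cells whose titles name them WT, 5 µM was set against no treatment. A total of 18 of the 31 genes were higher and 13 lower at 5 µM, with a median of 0.07 against -0.09 over all tested genes, and single genes spanned -0.57 to 1.23. Of the 31 genes 3 had an unadjusted p under 0.05, against 28.2% of all tested genes, and 0 passed, against 8.18% of all tested genes. Psmd8 read 13.70 and 13.71 in WT cells at 5 µM against 12.43 and 12.52 in untreated WT cells. Its difference of 1.23 ± 0.32 was the closest of the 31 to the threshold (95% interval 0.47 to 1.99, adjusted p = 0.0566). Psmb2 read 11.39 and 11.57 against 10.75 and 10.36 (0.93 ± 0.28, adjusted p = 0.0803), and Psmd11, a lid subunit, read 12.55 and 12.53 against 13.07 and 13.07 (-0.53 ± 0.21, adjusted p = 0.143). The WT arrays did not overlap for any of these 3 genes, nor for 22 more. In all, 16 of the 31 genes lay above and 9 below untreated WT cells on both arrays, against 36.7% and 46.7% of all tested genes.

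The outcome in WT cells turned on which spread between arrays was used. The 31 genes had a median SD between replicates of 0.03 in WT cells at 5 µM and 0.05 in untreated WT cells, against 0.17, 0.19 and 0.31 in CDKO cells at 0, 1 and 5 µM, and the fit pooled all 5 groups. With a trended and robust prior Psmd8 alone passed (adjusted p = 0.0410), where 8.92% of all tested genes passed, and without either array of CDKO cells at 1 µM Psmd8 and Psmb2 passed, where 19.1% did. Fitted on the 4 WT arrays alone, 13 of the 31 genes passed, 9 higher and 4 lower at 5 µM, where 54.9% of all tested genes passed. With weights for each array the count was also 13, with 8 higher and 5 lower, where 59.4% of all tested genes passed. In the fit of WT arrays alone the lid genes Psmd8 (adjusted p = 0.00207), Psmd7 (0.51, adjusted p = 0.0115) and Psmd13 (0.42, adjusted p = 0.0140) were higher at 5 µM. So were the beta ring genes Psmb2 (adjusted p = 0.0165), Psmb7 (0.42, adjusted p = 0.0143), Psmb5 (0.42, adjusted p = 0.0190) and Psmb1 (0.27, adjusted p = 0.0439). Psma2 of the alpha ring (0.38, adjusted p = 0.0230) and Psmc1 of the ATPase ring (0.26, adjusted p = 0.0429) were higher too. In that fit Psmd11 (adjusted p = 0.00781), Psmc4 (-0.42, adjusted p = 0.0177), Psmd3 (-0.57, adjusted p = 0.0421) and Psmb3 (-0.28, adjusted p = 0.0422), a beta ring subunit, were lower. On the second probe sets of Psmd11, Psmc4 and Psmb3 the differences in WT cells were 0.13, 0.35 and 0.77, the other way. Probe sets 3 and 4 of Psmd11, in order of mean, differed by -0.22 and -0.54, the same way as its brightest. With all 5 groups fitted neither of them passed (limma adjusted p = 0.507 and 0.159). The share of the 31 genes called was below that of all genes both with WT arrays alone and with array weights.

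**Figure D3:**
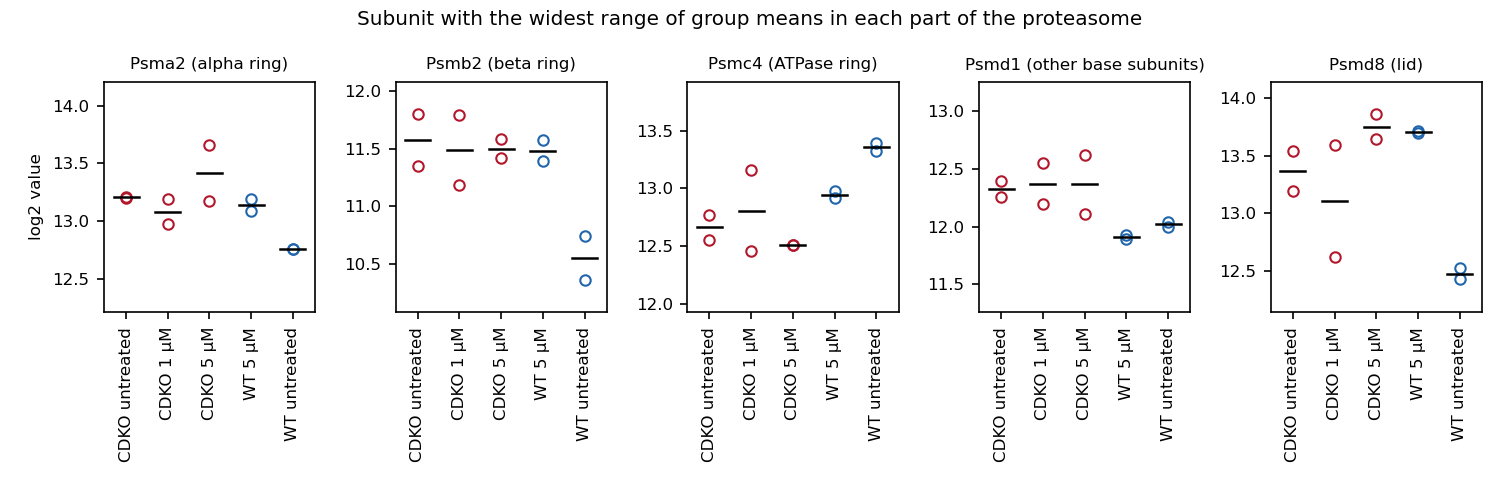
Log2 value on each of the 10 arrays for the gene of each subcomplex whose group means spanned most: Psma2, Psmb2, Psmc4, Psmd1 and Psmd8. Each circle is 1 array (red CDKO, blue WT, 2 per group) and each bar the group mean; Psmd8 and Psmb2 have their lowest and Psmc4 its highest group mean in untreated WT cells.

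Whether the 2 lines responded differently to 5 µM was tested as the CDKO difference minus the WT difference. The median over the 31 genes was -0.01, 0 genes passed, against 0.301% of all tested genes, and 2 had an unadjusted p under 0.05, against 11.8% of all tested genes. The difference in Psmb2 was -0.08 in CDKO cells and 0.93 in WT cells (SE of the line difference 0.40, adjusted p = 0.381). In CDKO cells it read 11.42 and 11.58 in CDKO cells at 5 µM against 11.35 and 11.80 in untreated CDKO cells. Psmd11 had 0.71 ± 0.30 (adjusted p = 0.396) and Psmd8 -0.85 ± 0.46 (adjusted p = 0.495). For 17 of the 31 genes the interval of this difference lay within 1 on either side of 0.

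Untreated CDKO cells were then compared with untreated WT cells. A total of 20 genes were higher and 11 lower in CDKO cells, with a median of 0.07. Of the 31 genes 4 had an unadjusted p under 0.05, against 21.2% of all tested genes, and 0 passed, against 4.54% of all tested genes. Psmb2 differed by 1.02 ± 0.28 (95% interval 0.35 to 1.69, adjusted p = 0.0811), Psmd8 by 0.89 ± 0.32 (adjusted p = 0.144) and Psmc4 by -0.70 ± 0.26 (adjusted p = 0.147). The second probe set of Psmc4 differed by 0.21, the other way (adjusted p = 0.566). The arrays did not overlap for 15 genes higher and 4 lower in CDKO cells, against 27.8% and 31.5% of all tested genes. With either array of CDKO cells at 1 µM left out of the fit Psmb2, Psmd8 and Psmc4 passed, as 11.5% of all tested genes did. With the spike-in class as a term of the fit Psmd13, a lid subunit, passed (adjusted p = 0.0269), as 9.88% of all tested genes did. Between the high-class arrays, 1 of CDKO cells and 2 of WT cells, the median was 0.16, with 25 genes higher in CDKO cells. Leaving out replicate 2 of untreated CDKO cells gives the same comparison.

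At 5 µM CDKO cells had 22 genes higher and 9 lower than WT cells, with a median of 0.07. Between the high-class arrays, 1 of CDKO cells (replicate 1) and 2 of WT cells, the median was 0.28, with 26 genes higher. That is the same comparison as with replicate 2 of CDKO cells at 5 µM left out. Without replicate 1 of CDKO cells at 5 µM the median was -0.086. None of the 31 passed, against 1.45% of all tested genes, and 0 had an unadjusted p under 0.05, against 15.1% of all tested genes. Psmd1 read 12.11 and 12.62 in CDKO cells against 11.93 and 11.89 in WT cells (0.46 ± 0.24, adjusted p = 0.427), and Psma1, an alpha ring subunit, read 13.17 and 12.66 against 12.45 and 12.51 (0.43 ± 0.23, adjusted p = 0.430). Psmc4 differed by -0.43 ± 0.26 (adjusted p = 0.497) and its second probe set by 0.064, and Psmb2 and Psmd8 by 0.02 ± 0.28 and 0.04 ± 0.32 (adjusted p = 0.989 and 0.977). The arrays did not overlap for 6 genes higher and 2 lower in CDKO cells, against 30.6% and 24.2% of all tested genes. The untreated and treated comparisons share no array, and the change between them is the line difference given above.

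The arrays with raised 18S stood apart for some of the genes. A total of 8 of the 31 genes (Psma2, Psmb1, Psmb2, Psmb5, Psmd7, Psmd8, Psmd12 and Psmd14) were lower on all 3 of those arrays than on every one of the other 7, an arrangement that 8.05% of all tested genes showed. Psmc4 was higher on all 3, as 13.7% of all tested genes were. Psmd12, a lid subunit, read 11.26 on replicate 2 of CDKO cells at 1 µM and 11.75 and 11.53 in untreated WT cells, and from 11.81 to 12.40 elsewhere. One of the 3 arrays is of treated CDKO cells and the other 2 are all of untreated WT cells, so in WT cells the raised 18S and the lack of treatment cannot be told apart.

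Several of the genes gave different answers from different probe sets. For 12 of the 31 genes at least 2 probe sets had a mean of 8 or more. Between 5 µM and untreated WT cells the 2 brightest probe sets had opposite signs for 9 of those 12 genes, against 30.6% of all 2091 genes with 2 such probe sets. Psmc4 differed by -0.42 on its brighter and by 0.35 on its second probe set, Psmb3 by -0.28 and 0.77, and Psmd4, a ubiquitin receptor of the base, by -0.04 and 0.86. None of these 6 values passed the test. Psmd8, Psmb2, Psmd3, Psmb5 and Psmb7 were among the genes with only 1 probe set, so their differences could not be read on a second.

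The gap between the 2 probe sets shifted on the arrays with raised 18S. For Psmb3 the brighter probe set exceeded the second by 0.99 and 0.32 in untreated CDKO cells, 0.17 and 1.86 at 1 µM, 0.31 and 0.86 at 5 µM, and 0.39 and 0.45 in WT cells at 5 µM against 1.44 and 1.50 in untreated WT cells. The 3 largest gaps were those of the 3 raised arrays. The gap was larger on all 3 than on each of the other 7 arrays for 7 of the 12 genes, against 26.8% of all 2091 genes. It was smaller on all 3 for Psmd6, a lid subunit, an arrangement that 9.9% of the 2091 genes showed. The positions of the probe sets along the transcripts were not used here, and the part of the raised 18S in these gaps was not tested.

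**Figure D4:**
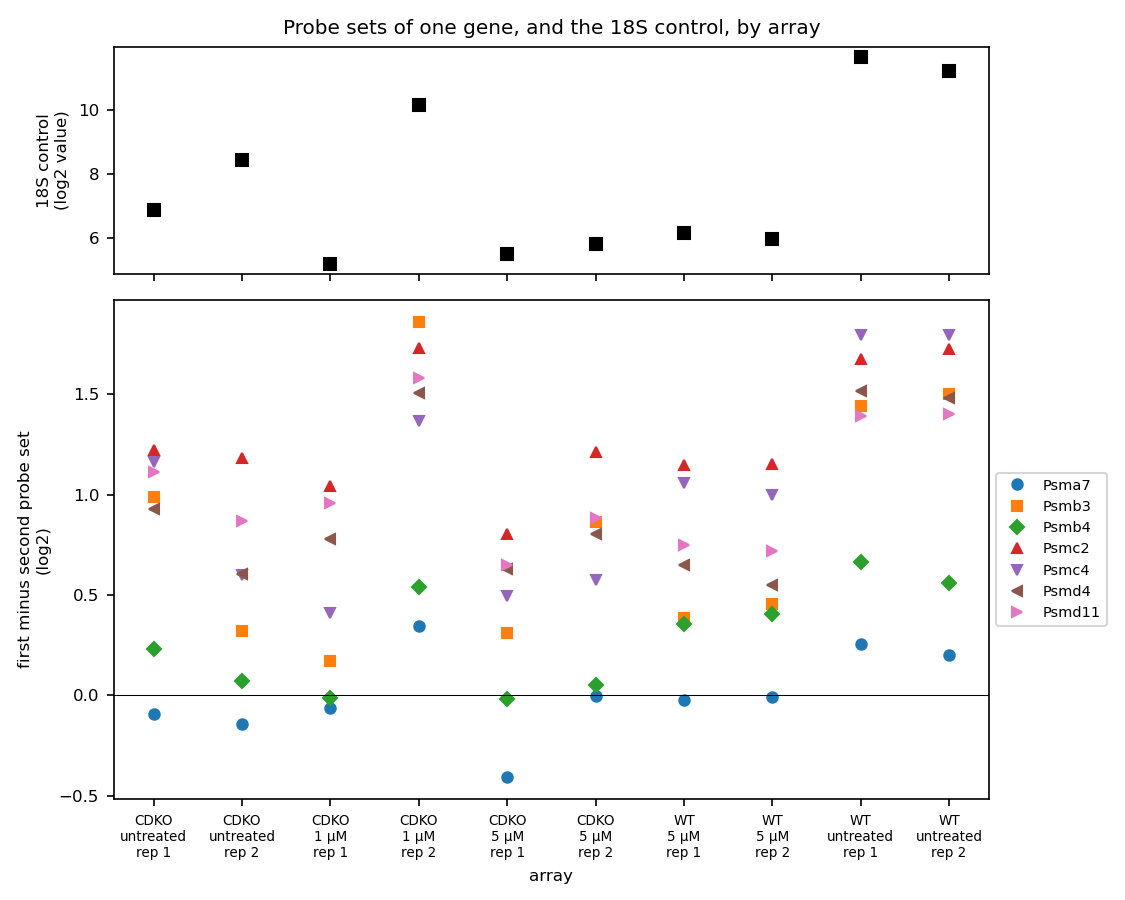
Mean log2 value of the 18S control probe sets (top) and log2 value of the brightest minus the second brightest probe set on each of the 10 arrays, for the 7 genes of 12 in which the 3 arrays with raised 18S (both of untreated WT cells and replicate 2 of CDKO cells at 1 µM) lie above the other 7. Each point is 1 array; for Psmb3 the 3 raised arrays lie between 1.44 and 1.86, and the other 7 between 0.17 and 0.99.

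The wider pathway was read from 33 further tested genes, in lists chosen from general knowledge with earlier results of these data known. None of them passed in 6 of the 8 comparisons, among them treated CDKO cells against the control groups and both doses against untreated CDKO cells. In WT cells 2 of the 33 passed, both lower at 5 µM, where 8.18% of all tested genes passed in either direction. Nfyb, a subunit of the factor NF-Y that binds CCAAT boxes, read 8.78 and 8.73 in WT cells at 5 µM against 9.76 and 10.01 in untreated WT cells, a difference of -1.13 ± 0.21 (adjusted p = 0.0224). It was also lower in untreated CDKO cells, at 8.65 and 8.31, than in untreated WT cells (-1.41 ± 0.21, adjusted p = 0.0118). Its second probe set differed by -0.03 (adjusted p = 0.945) and 0.30 (adjusted p = 0.465) in these 2 comparisons. Ubqln2, which carries ubiquitin-tagged proteins to the proteasome, read 12.16 and 12.12 in WT cells at 5 µM against 12.91 and 12.82 in untreated WT cells (-0.73 ± 0.18, adjusted p = 0.0486).

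Other parts of the pathway stayed short of the threshold, and of the 33 genes 18 were higher in WT cells at 5 µM. Ufd1, from the same list as Ubqln2, read 10.66 and 10.54 in WT cells at 5 µM against 9.46 and 9.45 in untreated WT cells. Its difference was 1.14 ± 0.29 (limma adjusted p = 0.0512). Psmd5, an assembly chaperone of the base, came closest in WT cells among 8 chaperones, at 10.77 and 10.77 with 5 µM against 9.95 and 9.96 untreated (0.81 ± 0.23, adjusted p = 0.0635). In CDKO cells it read 11.52 and 11.01 at 5 µM against 10.60 and 10.80 untreated (0.56 ± 0.23, adjusted p = 0.516). Usp14, a deubiquitinase bound to the base, had 0.79 ± 0.30 in WT cells (adjusted p = 0.124) among 5 bound factors, and Psmf1, an inhibitor of the core, 0.72 ± 0.29 (adjusted p = 0.146) among 4 activators and inhibitors. Ufd1, Usp14 and Psmf1, but not Psmd5, were lower on all 3 arrays with raised 18S than on the other 7, as 8.05% of all tested genes were. Replicate 2 of CDKO cells at 1 µM, a treated array, read 9.85 for Ufd1, 10.46 for Usp14 and 8.92 for Psmf1. The part of the raised 18S in these differences was not tested. Nfe2l1 ran from 8.85 to 10.41 and its lowest array was replicate 1 of CDKO cells at 5 µM. Of the inducible catalytic subunits, Psmb9 was under 4 on every array, Psmb8 ran from 3.72 to 5.18, near background, and Psmb10 from 8.20 to 8.71.

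Promoter sequence was looked at because these genes are known to be transcribed together. The 300 bases from 250 before to 50 after the start were taken from RefSeq (build GRCm38.p6) for 25 of the 31 genes, in 27 promoters. The antioxidant response element, which NRF1 binds with a small Maf partner, was searched on both strands as TGACNNNGC. It occurred in 4 of the 27 promoters (14.8%), against 12.4% of 32851 promoters. The 4 windows of 30 bases are printed because they hold every match, with the motif in capitals, as its reverse complement for Psmc6 and Psmd12:
Psmb5 (chr14:54618023-54618052, minus strand): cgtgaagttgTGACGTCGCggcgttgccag
Psmb6 (chr11:70525338-70525367, plus strand): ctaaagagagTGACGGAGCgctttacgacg
Psmc6 (chr14:45329587-45329616, plus strand): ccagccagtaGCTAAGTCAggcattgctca
Psmd12 (chr11:107479278-107479307, plus strand): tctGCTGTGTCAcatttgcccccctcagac
The genes with these matches include the steadiest of the set, Psmb6, and 2 of the 8 that were low on the raised arrays, Psmb5 and Psmd12. Psma2, Psmd8 and Psmd14, also among those 8, were searched and had no match. Psmb1, Psmb2 and Psmd7, the rest of those 8, had no promoter to search. In WT cells the 4 genes with the motif had a median difference of 0.14 at 5 µM and the 21 matched genes without the motif -0.04. Against untreated CDKO cells the order was the other way, with 0.02 and 0.04 at 5 µM and -0.24 and -0.07 at 1 µM. The part of the motif in these medians was not tested.

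The CCAAT box, the site of NF-Y, was searched on both strands and occurred in 10 of the 27 promoters (37.0%), against 37.4% of all promoters. Psma1 and Psma2 are shown as the alpha ring genes whose values are given above, with the box in capitals:
Psma1 (chr7:114276197-114276226, minus strand): cggagcttcctgCCAATcccacgttctcag
Psma2 (chr13:14613176-14613205, plus strand): ggtgactctcctCCAATcagagcaaagaag
Psma2 read 13.20 and 13.09 in WT cells at 5 µM against 12.76 and 12.76 in untreated WT cells, while Psma1 read 12.45 and 12.51 against 12.46 and 12.43. In WT cells the 10 genes with the box had a median difference of 0.00 and the 15 matched genes without it 0.05. A match describes letters in the window and not a bound site.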

How the data were processed

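The authors deposited log2 values for each probe set and array. The submitters' processing notes name GCRMA without a version. That the scale is log2 was read from the values, which ran from 1.09 to 16.04; no chip definition or filter is named. Symbols came from the platform annotation: of 45101 probe sets, 34958 had 1 symbol, 932 several and 9211 none.

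Without the 64 control probe sets, 20681 reached a mean of at least 4 in some group. These were fitted with limma 3.58.1 in R 4.3.3, using lmFit and eBayes with a mean for each of the 5 groups, which leaves 5 residual degrees of freedom. The p-values were adjusted over all of them by Benjamini-Hochberg, with a threshold of 0.05. The fit was tested on simulated data in which each probe set had the same spread in all 5 groups. The WT and CDKO groups differed in spread, which that test does not cover. Errors are SE of the model unless stated, and the small number of arrays limits the precision.

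The members, lists and alternatives were chosen with earlier results of these data known. The genes named are the 3 with the smallest p per comparison, the gene of each subcomplex with the widest range, and of each related list up to 3 genes that passed or else the 1 with the smallest p. Others named were chosen for their role or after their values were seen.

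Replicate numbers were not treated as pairs, because the correlation of replicate differences was -0.453 for the untreated and 1 µM CDKO groups and 0.431 for the untreated and 5 µM ones. The alternatives were other filters, priors, scalings, weights, probe sets and blocks, the compared groups alone, and each array left out. Promoters were searched for exact motif letters.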

Additional observations from a re-analysis of the deposited data

How the results depend on the processing

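The count of subunit genes past the threshold was 0 in every comparison of the main setting and left 0 in 3 comparisons under some alternatives. For 5 µM against untreated WT cells it was 1 with a trended and robust prior (Psmd8, adjusted p = 0.0410), 13 with array weights and 13 with the WT groups alone, and 1 of 29 genes with the second probe set (Psma3, adjusted p = 0.0322). For untreated CDKO against untreated WT cells it was 1 with a block for spike-in class (Psmd13, adjusted p = 0.0269). With single arrays left out it lay between 0 and 2 for WT cells (2 without either array of CDKO cells at 1 µM), 0 and 3 for untreated CDKO against WT cells (3 without those same arrays) and 0 and 2 for 5 µM against 1 µM (2 without replicate 1 at 1 µM).

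The median difference moved by more than its spread between replicates (SD 0.13) in these cases. With that block it was 0.053 for 1 µM against untreated CDKO cells, 0.25 for untreated CDKO against WT cells and 0.25 for CDKO against WT cells at 5 µM. With centring on the array median it was -0.15 for the line difference and -0.064 for CDKO against WT cells at 5 µM. With the second probe set it was -0.14 for the line difference and 0.21 for untreated CDKO against WT cells, where it was 0.22 with second probe sets of a mean of at least 8, an alternative chosen after seeing the data. Smaller moves changed its sign: for 5 µM against untreated CDKO cells it was -0.0087 with centring and with quantile normalization, and with quantile normalization it was -0.037 for WT cells and 0.043 for the line difference.

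Of 501 alternative values for named genes, 12 changed direction, none of them past the threshold. On the second probe set Psmc4 was 0.20 for treated CDKO cells against the control groups, 0.21 for untreated CDKO against WT cells and 0.064 for the same lines at 5 µM, also with second probe sets of a mean of at least 8, as was Psmd11 at 0.13 in WT cells. With second probe sets of a lower mean Psmd7 was -0.20 for 5 µM against untreated CDKO cells and -0.15 for 5 µM against 1 µM, and Psma1 was -0.056 for CDKO against WT cells at 5 µM. Psma2 for 5 µM against untreated CDKO cells lay between -0.034 and 0.45 with single arrays left out.

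With single arrays left out the median lay between -0.07 and 0.13 for treated CDKO cells against the control groups, -0.12 and 0.23 for 5 µM and -0.24 and -0.012 for 1 µM against untreated CDKO cells, -0.052 and 0.37 for 5 µM against 1 µM, -0.20 and 0.22 for the line difference, and -0.086 and 0.28 for CDKO against WT cells at 5 µM. Replicate 1 of CDKO cells at 5 µM left out gave the lowest of these in each comparison that uses that group, and replicate 2 left out the highest. The cause was not tested. With the replicate number as a block the count was 0 in each of the 8 comparisons. Of the 501 values for named genes, 470 kept their direction and side of the threshold and 19 newly passed it. The fit of the compared groups alone cannot be made for the first comparison, which uses all groups. Signal was far above background for the 31 probe sets used.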
